A study of Mus musculus with 9 samples.

Results

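The clustered protocadherins are neighbouring genes on mouse chromosome 18 that encode cadherin-like cell-surface proteins. They were taken here as the protein-coding genes of the mm9 annotation on that chromosome whose symbols begin with Pcdha, Pcdhb or Pcdhg, which gave 24 genes of 22367. The annotation folds most alpha promoters into one gene, Pcdha11, and most gamma promoters into one gene, Pcdhgc5, so that the 24 genes were 2 of the alpha, 21 of the beta and 1 of the gamma cluster. The data are H3K27ac ChIP-seq of splenic naive CD8+ T cells, sorted as GFP+ TCRbeta+ CD44lo-med cells among other markers, from 4 WT and 3 dKO samples with 1 input sample per genotype. WT cells carried hCD2-Cre and the Rosa26-GFP reporter with intact Tcf7 and Lef1, and dKO cells carried the same Cre and reporter with Tcf7 fl/fl and Lef1 fl/fl, so that both Tcf1 and Lef1 were deleted. Mice were adults of both sexes on a C57BL/6 background. hCD2-Cre acts mainly in mature T cells and GFP marks cells in which the Cre was active, so both groups are GFP-selected. The authors pooled the samples of a genotype before calling enriched islands, so there is 1 list per genotype, no spread between mice, and no test between genotypes. What follows compares 2 pooled lists, with 82668007 counts in the islands of WT and 57665047 in those of dKO.

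In the alpha and gamma clusters, each of many variable first exons has a promoter of its own and is spliced to a set of shared 3′ exons, while each beta gene has a single coding exon. A neuron switches on a small, largely random set of these promoters, together with the C-type genes at the 3′ ends of the alpha and gamma clusters, and the resulting mix of isoforms on its surface lets its branches recognise each other. H3K27ac is a histone mark of active promoters and enhancers. The comparison asks where this family carries the mark in naive CD8+ T cells and whether that differs without Tcf1 and Lef1.

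No island was called over any alpha or beta gene, and the gamma cluster held all islands of the family. Of the 24 genes, 1 had an island within 1 kb of a transcription start site (TSS) in the WT list, against 62.4% of all protein-coding genes, and 1 had one in the dKO list, against 62.6%. That gene was Pcdhgc5 in both lists. The other 23 had an island in neither list, which held for 34.9% of all genes. None had an island in 1 list only, against 2.42% of all genes for WT only and 2.68% for dKO only. Counting gene bodies instead of promoters gave Pcdhgc5 alone again, with backgrounds of 66.7% in WT and 67.2% in dKO. The remaining protein-coding genes of chromosome 18 were not poor in islands, since 315 of the 517 on the chromosome had a promoter island in WT and 312 had one in dKO.

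Counted by annotated gene, other clustered families lay between the protocadherins and the genome. Of 40 Hox genes, which encode the transcription factors of body patterning, 16 had a promoter island in WT and 14 in dKO. Of 240 olfactory receptor genes on chromosome 7, odorant receptors of sensory neurons, 23 had one in WT and 33 in dKO. By first exon, located below, 7 of 58 in the protocadherin clusters had an island within 1 kb of the start codon in WT and 5 in dKO. In WT this was a larger share than that of the olfactory receptor genes, and in dKO a smaller one. The order thus depends on how promoters are folded into genes. These shares are descriptions of the 2 lists, and their order was not tested.

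**Figure D1:**
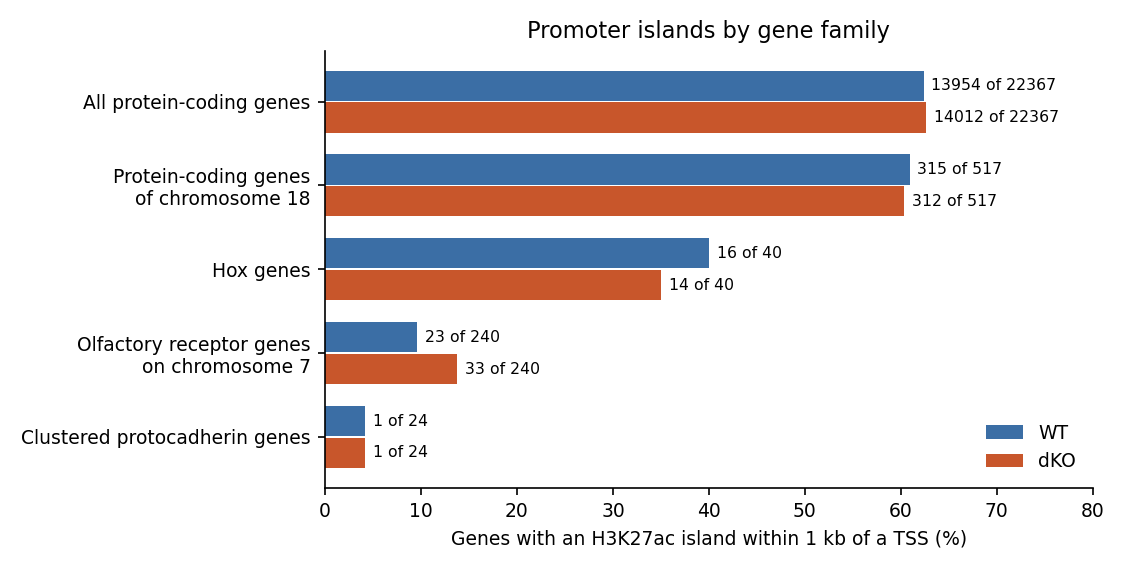
Percentage of genes with an H3K27ac island within 1 kb of a TSS (x axis) for 5 gene sets, WT above dKO in each pair of bars, with the count of genes beside each bar. Counted by annotated gene, with most alpha and gamma promoters folded together, the clustered protocadherins have the shortest bars, 1 of 24 in each list, below the olfactory receptor genes.

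To see which of the folded promoters carried the mark, first exons were located in the genome sequence as open reading frames of at least 2100 bp. The search ran from 100 kb before the first gene to 100 kb after the last, and 58 of 61 such frames could be named. They comprised 14 alpha, 22 beta and 22 gamma first exons of 743 to 883 codons. A first exon was counted as marked when an island touched the frame or the 1 kb before its start codon. None of the 14 alpha first exons and none of the 22 beta first exons was marked in either list. In the gamma cluster, 7 of 22 were marked in WT and 5 in dKO, and 15 were marked in neither. All 5 of the dKO list were among the 7 of the WT list.

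The unmarked alpha and beta genes lay in a single block without islands. From chr18:36964001 to 37802000 in the WT list (mm9, positions counted from 1), 838 kb held no island, and in the dKO list the block was 836.8 kb with the same 3′ border and a 5′ border at 36965201. It held 26 protein-coding genes, namely 23 of the 24 protocadherin genes with Slc25a2, a mitochondrial carrier gene, and the gene models Gm6756 and Gm10545. Measured over both lists, 33 of 76151 island-free stretches of the genome held more genes, and none of those was on chromosome 18. By length the block was 505th. The island-free stretch with most genes was on chromosome 2, with 205 olfactory receptor genes among its 210 genes. The block therefore stood out by the genes in it more than by its length.

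Distances to the nearest island, taken from the frame or the 1 kb before it, show how far into the block each first exon lay. The alpha first exon nearest to an island was Pcdha1, the 5′-most of the family, at 125 kb from the WT island and 124 kb from the dKO island, and the farthest was Pcdhac2, a C-type first exon, at 339 and 337 kb. Among beta genes, Pcdhb22 lay nearest, at 121 kb, and Pcdhb1 farthest, at 375 kb, both values being the same in the 2 lists. Gamma first exons without an island lay far closer, and the largest gamma distances were 17.8 kb in WT, for Pcdhga2, and 35.8 kb in dKO, for Pcdhga5. Over all 22 gamma first exons, the median distance was 2.70 kb in WT, against 9.35 kb in dKO.

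**Figure D2:**
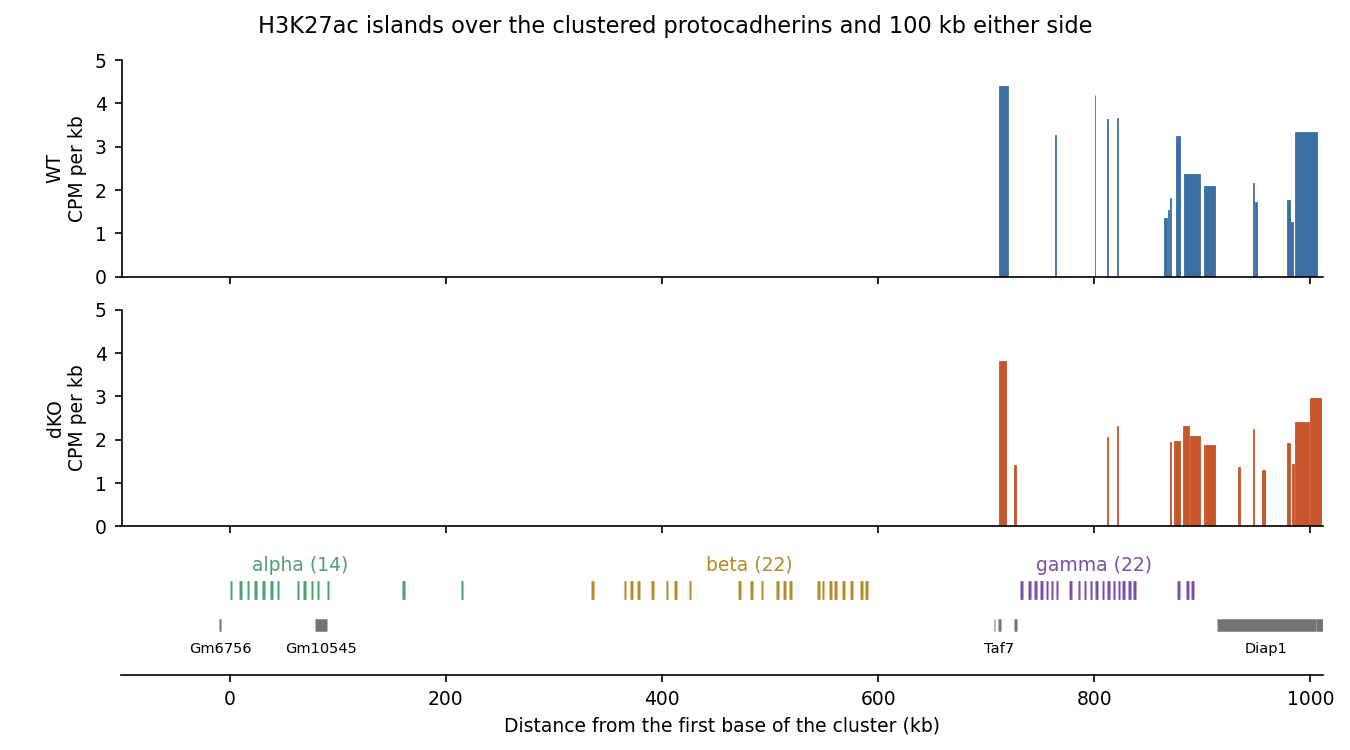
H3K27ac islands from 100 kb before to 100 kb after the clusters, with distance from the first base of Pcdha11 in kb (x axis) and island height (y axis, CPM per kb of island, where CPM are counts relative to the sum over the list), WT above dKO. Coloured marks are the 58 named first exons and grey marks the other genes; islands begin at Taf7, after the last beta gene, in both lists.

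Within 100 kb of the clusters there were 16 islands in each list, with 16570 counts in WT (71.6 kb of island) and 9970 in dKO (75 kb). Ratios are given as log2 dKO/WT after each list was scaled by its own sum of island counts. This ratio was -0.21 (95% counting interval -0.25 to -0.18), and -0.28 per kb of island. Islands numbered 14.4 per Mb in both lists, against 23.2 per Mb of chromosome 18 in WT and 29.7 in dKO. None lay in the alpha cluster, in the beta cluster or in the 100 kb 5′ of Pcdha1. The annotated gamma gene, chr18:37833989-38001527 on the plus strand, which begins at Pcdhga3, held 10 islands in WT and 7 in dKO, which covered 21.0% and 20.2% of it, against 12.4% and 13.5% of the chromosome.

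The gamma gene held 6893 counts in WT (35.2 kb of island) and 3994 in dKO (33.8 kb). In bulk cells, fewer cells with the mark and less of it per cell cannot be told apart. The scaled ratio was -0.27 on the log2 scale (95% counting interval -0.32 to -0.21), or -0.21 per kb of island. This sum includes 4 WT-only regions, which have no dKO counts to set against them. Over the 6 regions found in both lists it was -0.13 (-0.18 to -0.07) by counts and -0.25 per kb. The median over all 45322 single regions with islands in both lists was -0.07 by counts, with an SD of 0.62, and -0.02 per kb, with an SD of 0.29. Its island counts were unevenly placed, since Pcdhgc3 and the sequence after it held 81.4% of them in WT and 89.6% in dKO.

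Among the A-type and B-type first exons, which make up the randomly chosen part of the gamma cluster in neurons, the marked ones were Pcdhga5, Pcdhgb5, Pcdhgb6 and Pcdhgb7 in WT and Pcdhgb6 and Pcdhgb7 in dKO. Their islands were narrow, 0.4 to 1.2 kb wide against a median of 3.6 kb in the WT list and 3.0 kb in the dKO list. Each lay across a start codon. The Pcdhga5 island, chr18:37854001-37854400, ran from 154 bp before the start codon to 245 bp after it, with 108 counts in WT. The Pcdhgb5 island, chr18:37890601-37891000, ran from 207 bp before to 192 bp after, with 139 counts in WT. Neither had a counterpart in the dKO list.

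The Pcdhgb6 island began 294 bp before the start codon in both lists and had 300 counts in WT (1.0 kb of island) and 143 in dKO (1.2 kb). Its scaled ratio was -0.55 (95% counting interval -0.84 to -0.26) on the log2 scale and -0.81 per kb. The Pcdhgb7 island had 182 counts in WT (0.6 kb of island) and 161 in dKO (1.2 kb), a ratio of 0.34 (0.04 to 0.65) by counts and -0.66 per kb. The Pcdhgb7 ratio changed sign between the scales because the dKO island was wider. The 4 WT islands held 270 to 348 counts per kb, and 86.9% to 91.5% of all islands in the WT list were less dense. The 2 dKO islands held 119 and 134 counts per kb, and 73.5% and 81.1% of all islands in the dKO list were less dense. A narrow island needs many counts per kb to be called, so these ranks partly follow from the calling. Islands of like width were not compared.

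Of the 22 gamma first exons, 12 are A-type, 7 are B-type and 3 are C-type. Marked in WT were 1 A-type, 3 B-type and all 3 C-type first exons, and in dKO none of the A-type, 2 of the B-type and all 3 of the C-type. Some unmarked A-type and B-type first exons lay close to a marked one. Pcdhga10, between Pcdhgb6 and Pcdhgb7, was 1.88 kb from the nearest WT island and 1.68 kb from the nearest dKO island. Pcdhgb2, just before Pcdhga5, was 1.94 kb from the nearest island in WT and 31.2 kb in dKO.

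**Figure D3:**
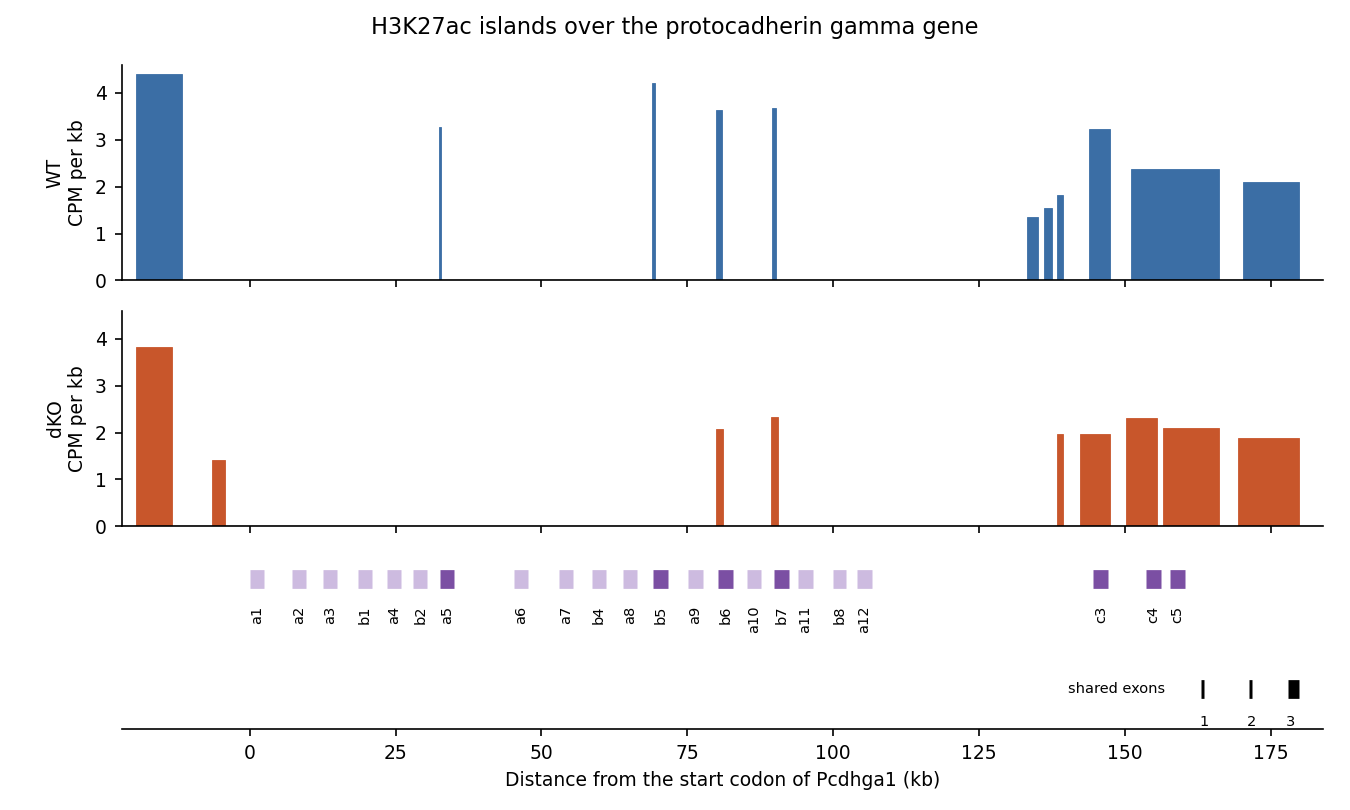
H3K27ac islands over the gamma cluster, with distance from the start codon of Pcdhga1 in kb (x axis) and island height in CPM per kb of island (y axis), WT above dKO. Dark marks are the 7 first exons with an island in at least 1 list, pale marks the 15 without, named without the prefix Pcdhg, and black marks the 3 shared exons; the narrow WT islands at a5 and b5 have no dKO counterpart.

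Between Pcdhga12 and Pcdhgc3, where no first exon was found, the WT list had 3 islands inside the gamma introns and the dKO list had 1. The region nearest to Pcdhgc3, chr18:37960001-37961000, was called with the same borders in both lists, with 151 counts in WT and 113 in dKO, a log2 dKO/WT of 0.10 (-0.25 to 0.45). The regions chr18:37954801-37956800, with 224 counts, and chr18:37957801-37959200, with 178 counts, were in the WT list only. All 7 WT islands before Pcdhgc3 summed to 1282 counts (6.8 kb), and the 3 dKO islands to 417 (3.4 kb).

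The islands over the 3 C-type first exons were wider than those over the A-type and B-type first exons. At Pcdhgc3, the WT island, chr18:37965401-37969000, held 964 counts over 3.6 kb and the dKO island 567 counts over 5.0 kb, with a common 3′ border and a 5′ border 1.4 kb further upstream in dKO. The log2 ratio was -0.25 (-0.40 to -0.10) by counts and -0.72 per kb. Pcdhgc4 and Pcdhgc5 shared 1 WT island, chr18:37972601-37987800, of 2980 counts over 15.2 kb, which also covered the first shared exon. In dKO the same stretch held 2 islands, 721 counts over 5.4 kb at Pcdhgc4 and 1161 counts over 9.6 kb at Pcdhgc5 and the first shared exon. Summed, the ratio was -0.14 (-0.23 to -0.06) by counts and -0.12 per kb.

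The last region covered shared exons 2 and 3, which every gamma isoform includes. It held 1667 counts in WT (9.6 kb of island) and 1128 in dKO (10.4 kb), a ratio of -0.04 (-0.15 to 0.07) by counts and -0.16 per kb. The 3 shared exons of the alpha cluster, by contrast, lay inside the island-free block in both lists.

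By scaled counts, none of the 11 regions with islands in both lists within 100 kb of the clusters changed by 1.5 times or more. Genome-wide, 14.6% of such regions were at least 1.5 times higher in WT and 11.1% were at least 1.5 times higher in dKO. Per kb of island, 3 regions were at least 1.5 times higher in WT, those of Pcdhgb6, Pcdhgb7 and Pcdhgc3, against 4.51% genome-wide, and none was higher in dKO, against 1.17%. At these 3 regions the dKO island was wider than the WT island. Of the 10 gamma regions, 4 had an island in the WT list only, against 12.8% of all regions, and 0 in the dKO list only, against 28.1%.

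**Figure D4:**
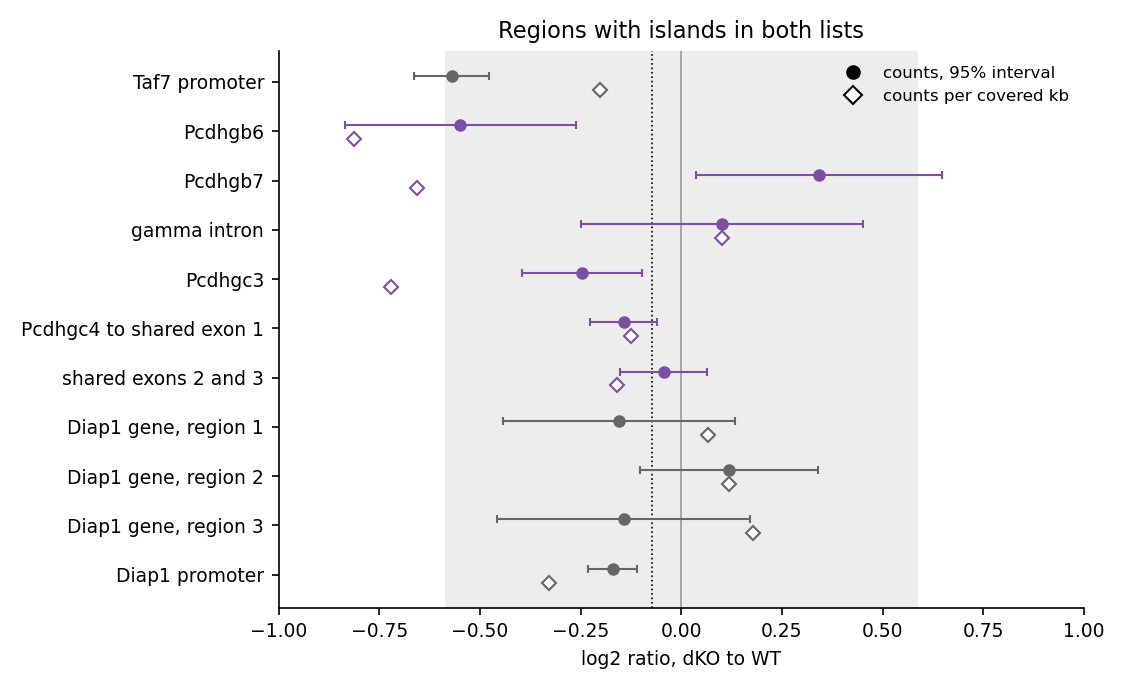
log2 ratio of dKO to WT (x axis) for the 11 regions that both lists share, in chromosomal order from top to bottom, purple inside the gamma gene and grey outside it. Filled circles are scaled counts with 95% counting intervals, open diamonds scaled counts per kb of island, the grey band spans ratios below 1.5 times either way and the dotted line is the genome median by counts; only the diamonds of Pcdhgb6, Pcdhgb7 and Pcdhgc3 lie outside the band.

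The WT-only regions were set beside the smallest islands of each list. Scaled down to the sum of island counts in dKO, the 4 gamma regions found in WT only would hold from 75.3 counts, at Pcdhga5, to 156, at the 5′-most intronic region. The smallest island of the dKO list had 43 counts and the smallest of the WT list 58. Across the genome, WT-only regions had a median of 258 counts, and 1.66% of them had fewer counts than the Pcdhga5 region. No ratio was formed for these 4, since the dKO list gives no counts there.

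Several properties of the DNA were set beside the islands. Within 500 bp of the start codon, alpha first exons held a median of 39 CpG dinucleotides, beta first exons 18 and gamma first exons 38.5, against 41 within 500 bp of the TSS of all protein-coding genes. The 7 gamma first exons with an island held 19 to 75 CpG, with a median of 43, and the 15 without an island held 29 to 53, with a median of 33. The ranges overlapped. The most CpG-rich first exon of the family, Pcdhac2 with 89 CpG, had no island, while Pcdhgc5, with 19, had one in both lists.

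**Figure D5:**
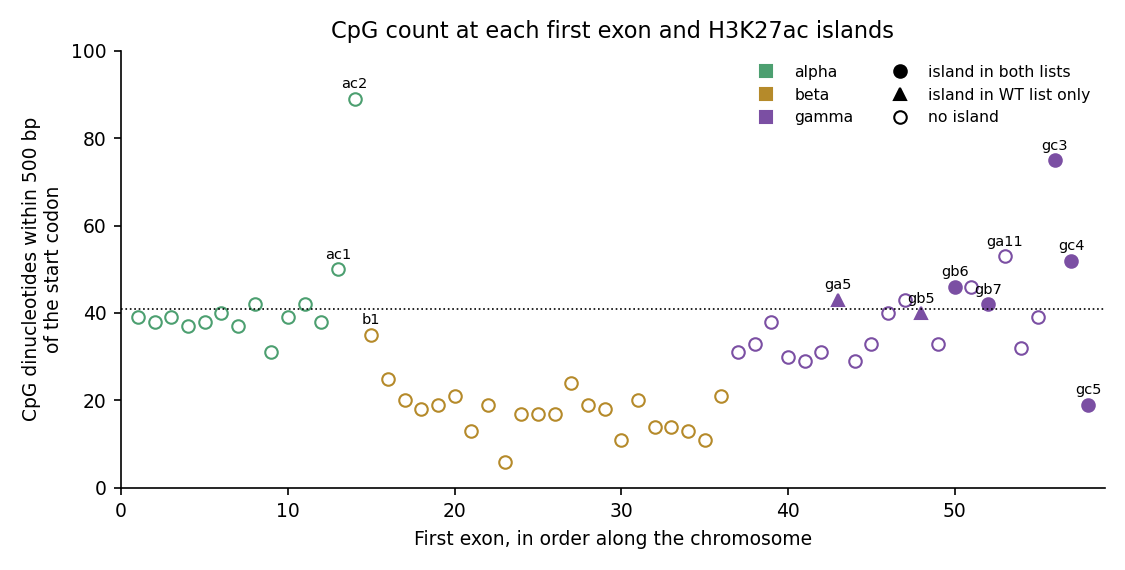
CpG dinucleotides within 500 bp of the start codon (y axis) for the 58 first exons in chromosomal order (x axis), coloured by cluster; filled circles have an island in both lists, filled triangles in the WT list only, open circles in neither, and the dotted line is the median of 41 around the TSS of all protein-coding genes. All alpha first exons but Pcdhac2, which lies above every other point, fall within the CpG range of the gamma first exons with islands, 19 to 75, and none has an island.

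Because reads had to map to one place, the uniqueness of the sequence was measured as the share of 50-base words that occur once in the genome. From 1 kb either side of each start codon, the median was 91.9% for alpha, with a lowest value of 78.0% at Pcdha7, and 100% for beta and for gamma, with lowest values of 87.1% and 88.2%. Over the whole clusters it was 83.1% for alpha, 87.5% for beta and 96.6% for gamma. Other promoters of chromosome 18 had a median of 100%. The first exons without islands were mostly made of unique sequence at this word length. Whether reads mapped there as well as elsewhere was not tested.

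The genes interleaved with or next to the clusters gave mixed values. Taf7, a single-exon gene for a subunit of the general transcription factor TFIID, lies between the beta and gamma clusters, and its promoter island held 2913 counts in WT (8.0 kb of island) and 1368 in dKO (6.2 kb), which makes -0.57 (-0.66 to -0.48) by counts and -0.20 per kb. 3222401L13Rik, between Taf7 and the gamma gene, had a promoter island of 180 counts in the dKO list only. Slc25a2, Gm6756 and Gm10545 had none in either list. Diap1, which encodes an actin-nucleating formin and ends 1.73 kb after the gamma gene, had a promoter island of 5669 counts in WT (20.6 kb) and 1740 in dKO (10.2 kb), a ratio of -1.18 by counts and -0.17 per kb. The WT island was met by 2 dKO islands, of which 1 touched the promoter. Both together held 3515 counts (23 kb), which gives -0.17 (-0.23 to -0.11) by counts for the merged region. Hdac3, a histone deacetylase gene next to Diap1, had 2471 counts at its promoter in WT and 1516 in dKO, a ratio of -0.19. On the 5′ side, the nearest gene with a promoter island was Zmat2, 131 kb before Pcdha1, with 1793 counts in WT and 932 in dKO, a ratio of -0.42.

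Of 14 non-clustered protocadherins, single genes of the same superfamily scattered over the genome, 4 had a promoter island in both lists and 10 in neither. Over all 22367 protein-coding genes, these counts were 13413 and 7814. The 4 were Pcdh1, with 650 WT and 473 dKO counts (log2 dKO/WT 0.06), Pcdh7, with 977 and 760 (0.16), Pcdh12, with 624 and 339 (-0.36), and Pcdh24, also named Cdhr2 and known from the brush border of epithelia. Pcdh24 held 1527 counts in WT (11 kb of island) and 7130 in dKO (27.6 kb), which makes 2.74 by counts and 1.42 per kb on the log2 scale. It was the 1 gene of the 4 past 1.5 times, against 12.3% of the 13413 genes with promoter islands in both lists that were higher in dKO by that much. Only islands touching the promoter were counted, so any other WT island under the wider dKO island of Pcdh24 was not included. The 10 without islands were Pcdh8, Pcdh9, Pcdh10, Pcdh11x, Pcdh15, Pcdh17, Pcdh18, Pcdh19, Pcdh20 and Cdhr1.

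All 18 genes of a list of known regulators of the clusters, with CTCF, cohesin subunits and loaders, DNA methyltransferases, the histone methyltransferases Setdb1, Ehmt1 and Ehmt2, Rest and Smchd1, had promoter islands in both lists. Over all 22367 protein-coding genes, 13413 did. The median log2 ratio of the 18 was -0.44, against -0.25 over all genes with promoter islands in both lists. At least 1.5 times higher in WT were 4 of the 18, Smc1a, Stag1, Stag2 and Smchd1, against 20.8% of such genes, and 2 were higher in dKO, Setdb1 and Ehmt2, against 12.3%. None of these 6 calls held per kb of island. Setdb1 went from 0.74 by counts to -0.31 per kb, and Ehmt2 from 1.63 to -1.49, which is past 1.5 times the other way. Per kb, Smc1a was 0.03, Stag1 0.03 and Smchd1 0.24, so these turned direction too, and Stag2 was -0.41. Smchd1, a chromatin protein that keeps clustered protocadherins silent in other tissues, was singled out after its values were seen. Its promoter island held 16726 counts in WT (28.2 kb of island) and 2536 in dKO (5.2 kb), which makes -2.20 by counts and 0.24 per kb. Only islands touching the promoter were counted, so any other dKO island under the WT island was not included. At Ehmt2 the dKO island was the wider one, 36.6 kb against 4.2 kb in WT, and at Setdb1 5.4 kb against 2.6 kb. Any other WT island under those dKO islands was likewise left out.

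Marker genes describe what the sorted cells carried. Of the naive CD8+ T cell list, Cd8a, Cd8b1, Cd3d, Cd3e, Lck, Ccr7 and Il7r had promoter islands in both lists. Of all 22367 protein-coding genes, 13413 had promoter islands in both lists and 7814 in neither. Those of Cd8a, Cd8b1, Ccr7 and Il7r were at least 1.5 times higher in WT by counts (background 20.8%), and that of Cd3e was higher in dKO (12.3%). Per kb, Il7r (-0.60) and Cd3e (0.62) stayed past 1.5 times, while Cd8a was -0.17, Cd8b1 -0.09 and Ccr7 -0.35. Cd8a and Cd8b1 shared 1 WT island of 65 kb, and that of Ccr7 was 134.6 kb wide. Here too, any dKO island under these WT islands that did not touch the promoter was not included. Cd3d and Cd3e shared 1 dKO island, of 12395 counts over 42.2 kb. In WT they had separate islands, 13506 counts (30.2 kb) at Cd3d and 6799 (24.8 kb) at Cd3e. The Cd3e ratio thus sets the shared dKO island against the WT island of Cd3e alone, and a ratio over both WT islands was not formed. Of 6 neuronal genes, Snap25, Syt1, Nefl and Neurod1 had none in either list, Rbfox3 had one in dKO only and Tubb3 had one in both. Markers of other cells were partly marked in both lists, at 3 of 4 B cell genes, 1 of 2 NK cell genes, 4 of 4 myeloid genes and 2 of 4 genes of fibroblasts and endothelium, as was Cd4. Pax5, Ncr1, Col1a2 and Cdh5 had none. By counts, Cd4 (0.66) was at least 1.5 times higher in dKO, and Csf1r (-1.18), Cd14 (-0.70) and Pdgfrb (-0.79) at least 1.5 times higher in WT, and per kb none of these 4 was past 1.5 times and all 4 turned direction. The share of other cells in the sorted samples was not tested.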

How the data were processed

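H3K27ac ChIP-seq of naive CD8+ T cells comprised 9 samples, 4 WT, 3 dKO and an input for each genotype. Per the labels and the methods of the study, the authors aligned reads to mm9 with Bowtie2 (2.2.5), retained uniquely mapping reads (mapping quality over 10), merged the replicates by genotype and identified islands over input with SICER (1.1; window 200 bp, gap 400 bp, FDR 0.01). The treatment of duplicate reads is not given for these libraries in the sources used here. The deposited values are raw read counts per island, 1 list per genotype. The WT list holds 65563 islands with 82668007 counts and the dKO list 82213 islands with 57665047 counts. Input libraries enter only through the calling of islands. Counts are confined to called islands, so a place outside them has none, and a count moves with the borders of its island.

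Islands of both lists sharing at least 1 bp were merged into regions. Counts were divided by the total island counts of each list, and regions differing 1.5 times or more in either direction were taken as changed, by counts and by counts per kb of island. The 95% Wilson intervals cover counting error only, and they treat reads as independent molecules, which they are not. No p-value was computed because pooling leaves 1 list per genotype. Genes came from GENCODE vM1 on NCBIM37, which is mm9. The 21 chromosomes of the lists matched this assembly, and no island passed a chromosome's end. A promoter is 1 kb either side of any annotated TSS. First exons were plus-strand open reading frames of at least 2100 bp. Beta frames took the name of the gene they overlap. Alpha and gamma frames were named where the distance from start codon to the shared 3′ end matched 1 gene length of a RefSeq table (GRCm38.p6, used for names and lengths only) within 1500 bp. Of the 36 alpha and gamma frames, 19 lie in the first exon of an annotated transcript. Pcdhb20 and Pcdhgb8, counted among first exons, are annotated as pseudogenes. Word uniqueness used 50-base words on both strands.

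The genes named are those with an island at a promoter or first exon, those nearest to an island, every gene within 100 kb, list members without islands or with 1 in a single list, every island inside the clusters and the 5 islands with most counts per list. The family, the gene lists and the rule were chosen with earlier results of these data known. Merging, overlap, intervals and frame finding were tested on simulated data. Alternatives were promoter width, TSS choice, overlap, a minimum of 3 CPM (counts relative to the sum over the list), joining islands within 5 kb, the margin, the scaling, pseudocounts and the ratio. Python (3.11.15), numpy (2.4.6) and matplotlib (3.10.9) were used. No sequence of these genes is printed, and 1 marker gene is not reported here.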

Additional observations from a re-analysis of the deposited data

How the results depend on the processing

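No paired analysis was possible because the authors pooled the replicates of each genotype before deposit, and no replicate was left out for the same reason. The promoter count of 1 of 24 held in both lists under 5 of 6 settings and was 0 in both when only the 5′-most TSS of each gene was used, since the marked TSSs of Pcdhgc5 are internal ones. The gene body count stayed at 1 in both lists under all 4 settings. With islands of at least 3 CPM only (249 counts in WT, 173 in dKO), marked first exons fell to 4 in WT and 3 in dKO, a setting chosen after seeing the data. Pcdhgb6 and the 3 C-type first exons remained in WT, and the 3 C-type in dKO. Islands within 100 kb numbered 9 in WT and 10 in dKO under that minimum, and 8 and 9 when islands within 5 kb were joined; without the margin there were 9 in dKO.

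The summed log2 ratio of -0.21 was -0.14 when scaled by regions with islands in both lists and -0.14 by the median ratio, -0.28 per kb, -0.30 without the margin and -0.25 with a margin of 50 kb. The median over regions, -0.14, became -0.38 when islands within 5 kb were joined. The gamma sum, -0.27, was -0.13 over regions found in both lists only, a setting chosen after seeing the data. Changed regions rose from 0 to 3 per kb. Of 44 values of single regions under 4 settings, 36 stayed within their counting interval and 8 did not, 6 of these per kb. Narrow islands of about 100 counts lie near the smallest counts of either list, which limits what their absence shows.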
